A study of Homo sapiens with 6 samples.

Results

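The nuclear genes of the mitochondrial respiratory chain were compared between AsPC-1 pancreatic cancer cells infected with lentivirus for MMP28 (OE-MMP28) and AsPC-1 cells infected with empty virus (Vector). Members were chosen by name among the protein-coding genes outside the mitochondrial chromosome. The rule used no measured value, but it was set with earlier results of these data known. Names beginning with NDUFA, NDUFB, NDUFC, NDUFS or NDUFV were taken for complex I, SDHA to SDHD for complex II, names beginning with UQCR and CYC1 for complex III, names beginning with COX4 to COX8 for complex IV, and names beginning with ATP5 for complex V. This gave 100 of the 58735 genes in the table, with 48, 4, 10, 17 and 21 members for complexes I to V. Of these, 88 were subunits, 8 were complex I assembly factors whose names begin with NDUFAF, and 2 were read-through genes that join a subunit gene to its neighbour. The other two were ATP5IF1, an inhibitor of ATP synthase, and ATP5S, a coupling factor. The 13 mRNAs encoded by the mitochondrial genome were read from the same libraries as a reference.

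Complexes I and II feed electrons from NADH and succinate into the ubiquinone pool, complex III passes them to cytochrome c, and complex IV hands them to oxygen. Complexes I, III and IV pump protons across the inner mitochondrial membrane, and complex V, the ATP synthase, uses the returning protons to make ATP. Complex II is encoded in the nucleus alone, whereas the other complexes join nuclear subunits, translated in the cytosol and imported, to a few subunits made inside the organelle from mitochondrial DNA.

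RNA of AsPC-1, a line grown from a human pancreatic adenocarcinoma, was sequenced in 3 Vector and 3 OE-MMP28 libraries. The labels gave the Vector cells as wild type and the OE-MMP28 cells as overexpressing MMP28, a secreted matrix metalloproteinase. According to the study's methods the MMP28 vector carried GFP and puromycin resistance and infected cells were kept under puromycin, while what the empty vector carried is not given in the sources used here. No clone, culture or passage was named for any library, so the p-values measure the spread between these libraries, which may be technical. RNA was taken from whole cultures, and less RNA per cell and fewer cells with a given transcript cannot be told apart.

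Total counts ranged from 13633249 to 16691458 per library. Levels per library are given as TMM-scaled CPM, counts brought to a common library size with the TMM factors, and cannot be compared between genes of different length. MMP28 itself, the check of the labels, stood at 14.8, 26.1 and 24.2 TMM-scaled CPM in the Vector libraries and 37.1, 40.3 and 44.0 in the OE-MMP28 libraries, higher in every OE-MMP28 library (log2 fold change 0.90 ± 0.19 (SE), adjusted p = 0.00226). The marker sums that follow are CPM from the total counts of each library, without the TMM factors. The epithelial markers KRT8, KRT18, KRT19, EPCAM, CDH1 and CLDN4 summed to between 10861 and 15479 CPM in the Vector libraries. In the OE-MMP28 libraries they summed to between 14388 and 18407 CPM, and 1 of the 6 was called higher and 2 lower. The fibroblast list summed to between 104 and 126 against between 120.1 and 169, nearly all of it LUM, the only one of its 6 genes tested and not called, with COL1A2 at no more than 1 count in any library. The 6 macrophage and leukocyte markers summed to between 2.05 and 2.47 against between 1.74 and 2.04, with PTPRC and CD163 at no more than 1 count in any library and no call in the 1 tested. The 4 endothelial markers summed to between 0.467 and 1.65 against between 1.55 and 2.46, with KDR at 0 in all libraries, and 1 of the 2 tested, PECAM1 at 0.0966 FPKM, was called higher. The part of these markers in the results below was not tested.

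Promoters are shown first, since nuclear factors that bind near the start site are a known means by which these scattered genes are coordinated. RefSeq promoter sequences (GRCh38.p14, 250 bases before to 50 bases after the start) were matched for 76 of the 100 members. Both strands were searched for the letters GCGCANGCG, a core of the sites of nuclear respiratory factor 1 (NRF1), CCGGAAG, a core of the sites of ETS factors such as GABPA, and AAGATGGCG, a core of the YY1 site. None of the 3 motifs contains another. The 250 bases before the start are printed below 5′ to 3′ along the gene, with matches in capitals, for the subunit of each complex that had the highest log2 fold change among called subunits with a match. A match was required, so the printed stretches hold these letters by choice. NDUFB1, COX7C and ATP5MC1 rose more than the printed subunit of their complex and held none of the letters. ATP5MPL, which rose most in complex V, had no matched promoter. The stretch of NDUFS6 lies at chr5:1801157-1801406, plus strand, SDHA at chr5:218070-218319, plus strand, UQCRFS1 at chr19:29213152-29213401, minus strand, COX6A1 at chr12:120437863-120438112, plus strand, and ATP5ME at chr4:674277-674526, minus strand.
NDUFS6: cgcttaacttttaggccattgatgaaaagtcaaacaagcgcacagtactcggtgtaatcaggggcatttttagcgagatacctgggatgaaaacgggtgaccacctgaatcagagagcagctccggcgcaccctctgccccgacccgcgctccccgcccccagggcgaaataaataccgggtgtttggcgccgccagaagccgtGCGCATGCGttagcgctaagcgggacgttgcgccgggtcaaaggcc
SDHA: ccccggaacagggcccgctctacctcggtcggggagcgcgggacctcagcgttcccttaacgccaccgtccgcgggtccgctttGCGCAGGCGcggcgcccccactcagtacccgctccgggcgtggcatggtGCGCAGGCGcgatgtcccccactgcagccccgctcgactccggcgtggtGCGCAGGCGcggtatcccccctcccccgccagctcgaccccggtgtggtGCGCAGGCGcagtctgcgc
UQCRFS1: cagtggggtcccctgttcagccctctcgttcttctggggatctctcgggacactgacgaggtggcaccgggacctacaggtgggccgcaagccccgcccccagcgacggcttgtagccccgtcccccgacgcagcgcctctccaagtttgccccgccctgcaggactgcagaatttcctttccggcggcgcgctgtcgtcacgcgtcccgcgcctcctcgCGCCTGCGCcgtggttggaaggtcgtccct
COX6A1: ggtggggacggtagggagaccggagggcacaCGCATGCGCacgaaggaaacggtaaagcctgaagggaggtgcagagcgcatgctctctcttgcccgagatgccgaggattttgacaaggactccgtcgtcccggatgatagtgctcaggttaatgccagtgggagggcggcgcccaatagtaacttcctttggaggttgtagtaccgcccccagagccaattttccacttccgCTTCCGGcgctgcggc
ATP5ME: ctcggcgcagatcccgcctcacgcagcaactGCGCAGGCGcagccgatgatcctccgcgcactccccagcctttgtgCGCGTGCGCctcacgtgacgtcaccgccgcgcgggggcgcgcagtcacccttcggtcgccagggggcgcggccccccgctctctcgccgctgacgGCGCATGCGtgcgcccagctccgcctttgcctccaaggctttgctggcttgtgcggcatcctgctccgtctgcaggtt
SDHA held 4 matches of the NRF1 letters, beginning 166, 117, 68 and 19 bases before the start. NDUFS6 held 1 at 46 bases, UQCRFS1 held 1 at 30 bases, and ATP5ME held 3 at 219, 173 and 78 bases. COX6A1 held the NRF1 letters 219 bases and the ETS letters 16 bases before the start, both on the opposite strand. Over the matched members the NRF1 letters were found in 23 of 76 promoters (30.3%) against 11.0% of 15842 protein-coding promoters, the ETS letters in 20 (26.3%) against 14.2%, and the YY1 letters in 8 (10.5%) against 2.74%. Both members that rose in OE-MMP28 cells and members without a higher call held these letters. The NRF1 letters were in 10 of 27 members that rose (37.0%) and in 12 of 45 tested members without such a call (26.7%). The ETS letters were in 8 (29.6%) and 12 (26.7%), and the YY1 letters in 3 (11.1%) and 5 (11.1%). The lengths of these letters were set after such shares were seen. With 1 more C at the end of the NRF1 letters, the shares were 22.2% and 22.2% (members 22.4%, all 8.57%), so the gap between members that rose and the others was not seen with the longer form. A match describes the sequence and not a bound site, and the absence of a match says only that the letters were not in this window.

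Nuclear respiratory chain genes were on the whole higher in OE-MMP28 cells, by amounts mostly below a doubling, while the mitochondrially encoded mRNAs were not. With edgeR's quasi-likelihood test and Benjamini-Hochberg adjustment over all 15319 genes tested, 36 members rose at an adjusted p under 0.05, 2 fell, and 53 passed neither way. A number in parentheses directly after a gene name is its log2 fold change (OE-MMP28 over Vector). A second fit set each gene against its place in the genome, with the median log2 fold change of the other tested genes within 10 Mb as an offset, and its values are given as those with the neighbour offset where it ended a call. The same test called 11.7% of all genes higher and 11.6% lower. Among protein-coding genes the shares were 13.5% and 12.1%, and among protein-coding genes with a mean of 10 FPKM or more (fragments counted per length of gene and depth of library, the scale used for levels between genes), where most members lie, they were 18.7% and 8.97%. That last background was chosen after the values were seen. The remaining 9 members had too few counts to be tested, at most 10 in any library, so the 91 tested members are those with enough counts in this cell line. The log2 fold change was above 0 for 75 of the 91, against 51.2% of all genes tested, and its median was 0.41 against 0.01 over all genes and 0.13 over the protein-coding genes of 10 FPKM or more. Of those 4114 protein-coding genes 2603 lay above 0. The libraries of the 2 groups did not overlap for 52 members that were higher and 3 that were lower (backgrounds 19.5% and 18.6% of all genes tested), among them 33 of the 36 called higher. Of the 4114 protein-coding genes of 10 FPKM or more, 1173 were higher and 569 lower without overlap. Changes beyond a log2 fold change of 1 were few: NDUFB1, NDUFS6 and ATP5MPL above and COX6B2 below, 4 of 91 against 7.38% of all genes with such a change and an adjusted p under 0.05.

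**Figure D1:**
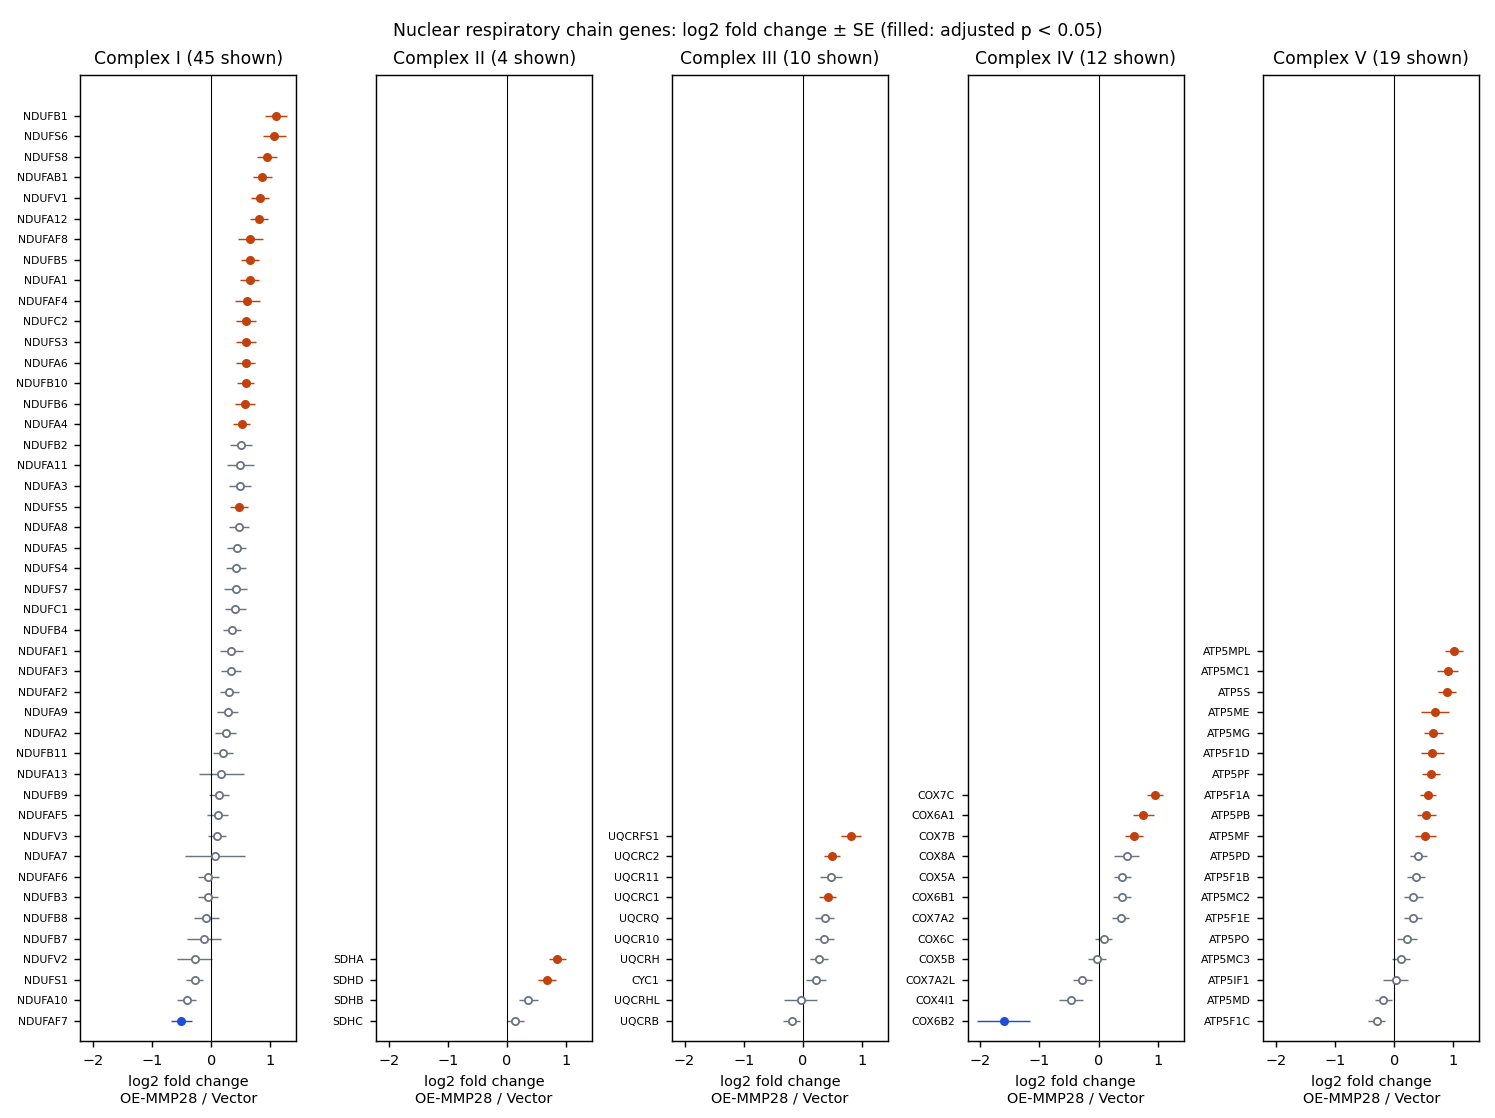
Log2 fold change ± SE (horizontal axis, OE-MMP28 over Vector, edgeR, n = 3 each) of the tested members reported here, one row per gene and one panel per complex. Filled orange points rose and filled blue points fell at an adjusted p under 0.05, and open points passed neither way. Most points lie to the right of 0 in each panel, and COX6B2 stands alone at -1.61.

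The shift was present in each OE-MMP28 library but not of one size. The median over the 91 tested members of the log2 ratio to the Vector mean was 0.06, -0.09 and 0.01 in the Vector libraries 1 to 3 and 0.21, 0.42 and 0.52 in the OE-MMP28 libraries 1 to 3. Over all genes tested the same median stayed between -0.02 and 0.01. OE-MMP28 replicate 1 was the lowest of its group for complexes I, III, IV and V and still above the highest Vector library, whereas for complex II it lay at 0.52, between the other two. All 100 members together took 0.767%, 0.694% and 0.713% of the counts in the Vector libraries and 0.857%, 0.937% and 0.991% in the OE-MMP28 libraries. On the TMM scale the ratio of the group means was 1.30 over all members, 1.33 for complex I, 1.55 for complex II, 1.23 for complex III, 1.20 for complex IV and 1.30 for complex V.

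**Figure D2:**
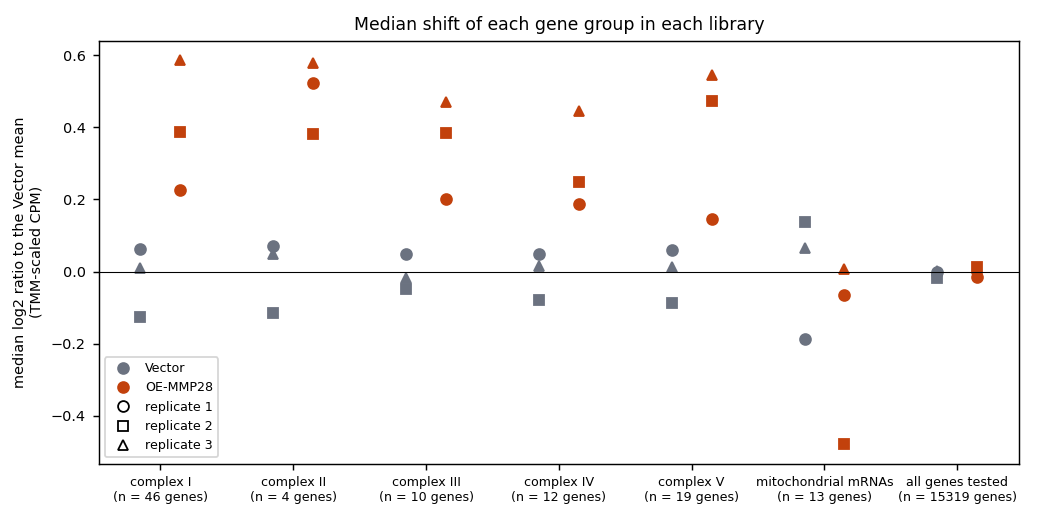
Median log2 ratio to the Vector mean (vertical axis, TMM-scaled CPM) of the tested genes of each complex, of the 13 mitochondrial mRNAs and of all genes tested, in each of the 6 libraries. Grey marks are Vector and orange marks OE-MMP28 libraries, with a shape for each replicate number. For each nuclear complex the 3 orange marks lie above the 3 grey marks, and for the mitochondrial mRNAs they overlap, with OE-MMP28 replicate 2 lowest at -0.48.

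Complex I, the NADH dehydrogenase, had 46 tested members, of which 18 rose and 1 fell (median log2 fold change 0.42), and among its 38 tested subunits 16 rose and none fell. The subunits that bind NADH and take up its electrons, the N module, gave 4 calls higher of 10 tested. NDUFV1, which carries the flavin and the NADH site (chr11:67605653-67612554), was measured at 132, 142 and 134 TMM-scaled CPM in the Vector libraries and 198, 250.5 and 277 in the OE-MMP28 libraries. Every OE-MMP28 library lay above every Vector library, by 1.78-fold (log2 fold change 0.83 ± 0.15 (SE), adjusted p = 0.000683). NDUFS6, a small zinc-containing subunit that joins late in assembly, was measured at 58.7, 38.0 and 38.8 TMM-scaled CPM in the Vector libraries and 69.1, 108 and 107 in the OE-MMP28 libraries (log2 fold change 1.07 ± 0.20 (SE), adjusted p = 0.000652). Its groups did not overlap either, although Vector replicate 1 and OE-MMP28 replicate 1 lay close to each other. NDUFA12 (0.81) and NDUFA6 (0.58), accessory subunits of the same arm, rose as well, NDUFA6 not without Vector replicates 2 or 3 or OE-MMP28 replicates 2 or 3 (adjusted p between 0.0507 and 0.0701). NDUFS1, the largest iron-sulfur subunit of the module, did not share this: it stood at 155, 124 and 155 against 125, 121 and 110.2 TMM-scaled CPM for Vector against OE-MMP28 (log2 fold change -0.28 ± 0.15 (SE), adjusted p = 0.177). Its chromosomal neighbours were lower too, as described further on.

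In the Q module, which holds the last iron-sulfur clusters and the quinone site, NDUFS8 and NDUFS3 rose. NDUFS8, an iron-sulfur subunit of this module (chr11:68030617-68036644), was measured at 59.8, 48.3 and 50.9 TMM-scaled CPM in the Vector libraries and 80.7, 104 and 119.8 in the OE-MMP28 libraries (log2 fold change 0.94 ± 0.17 (SE), adjusted p = 0.000513). NDUFS3 was at a log2 fold change of 0.58 ± 0.17 (SE), adjusted p = 0.0162. The call of NDUFS3 was lost without Vector replicate 2 (adjusted p = 0.0608) and without OE-MMP28 replicate 3 (adjusted p = 0.0921).

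Among 21 tested subunits of the membrane arm and other accessory positions 8 rose. NDUFB1, a short subunit that spans the membrane, had the largest log2 fold change of the tested members without an offset. It was measured at 15.3, 12.7 and 13.6 TMM-scaled CPM in the Vector libraries and 23.3, 32.3 and 32.9 in the OE-MMP28 libraries (log2 fold change 1.09 ± 0.18 (SE), adjusted p = 0.000315). With the neighbour offset it was 0.54, adjusted p = 0.0516, its neighbours standing at 0.55. NDUFAB1, the mitochondrial acyl carrier protein, which also serves fatty acid and lipoic acid synthesis, was measured at 60.0, 41.6 and 59.2 TMM-scaled CPM in the Vector libraries and 96.4, 99.0 and 96.5 in the OE-MMP28 libraries (log2 fold change 0.86 ± 0.16 (SE), adjusted p = 0.00082). For both genes the groups were apart, and the 3 OE-MMP28 libraries of NDUFAB1 lay within 3 TMM-scaled CPM of each other. NDUFB5, NDUFA1, NDUFC2, NDUFB10, NDUFB6 and NDUFS5 rose with log2 fold changes between 0.47 and 0.65. Leaving out OE-MMP28 replicate 2 ended the calls of NDUFA1, NDUFC2 and NDUFB6 (adjusted p = 0.0571, 0.0722 and 0.0823). Leaving out Vector replicate 2 ended those of NDUFC2 and NDUFB6 (adjusted p = 0.0672 and 0.0775), and NDUFB6 was also lost without Vector replicate 3 (adjusted p = 0.0519). The neighbour offset ended the calls of NDUFB5 (0.19, adjusted p = 0.445), NDUFC2 (0.23, adjusted p = 0.403), NDUFB10 (0.32, adjusted p = 0.145) and NDUFS5 (0.35, adjusted p = 0.126). NDUFS5 and NDUFB10 were the most abundant members of the complex per length. NDUFS5 stood at 167 ± 16.9 FPKM in the Vector group and 228 ± 28.1 FPKM in the OE-MMP28 group (SD, n = 3 each), and NDUFB10 at 75.0 ± 3.41 FPKM in the Vector group and 111 ± 9.68 FPKM in the OE-MMP28 group (SD, n = 3 each). NDUFA4, named for complex I and now counted as a subunit of complex IV, was measured at 169, 175 and 149 TMM-scaled CPM in the Vector libraries and 215, 234 and 256 in the OE-MMP28 libraries and also rose (log2 fold change 0.52 ± 0.14 (SE), adjusted p = 0.0137). Its call was lost without Vector replicate 3 (adjusted p = 0.107) and without OE-MMP28 replicate 2 (adjusted p = 0.0663) or 3 (adjusted p = 0.0501). NDUFS5 lost its call without Vector replicates 2 or 3 or OE-MMP28 replicates 2 or 3, with adjusted p between 0.0718 and 0.124.

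NDUFB7 and NDUFA10 of complex I each had a Vector library, replicate 2, far above the rest. NDUFB7 stood at 33.1, 87.3 and 30.0 against 32.3, 50.2 and 55.5 TMM-scaled CPM for Vector against OE-MMP28, so that Vector replicate 2 exceeded every other library. Its log2 fold change of -0.12 ± 0.29 (SE), adjusted p = 0.803 turned to 0.54 without that library. NDUFA10 stood at 137, 203 and 146 against 127, 119 and 119 TMM-scaled CPM, with all OE-MMP28 libraries below all Vector libraries (log2 fold change -0.42 ± 0.16 (SE), adjusted p = 0.0666), and it was called lower without Vector replicate 1 (adjusted p = 0.028). NDUFA7, NDUFA13 and NDUFV2 were listed at no more than 1.2 FPKM in either group mean although their products are standard subunits. Other annotated genes overlap 32.3%, 16.1% and 28.4% of their exon length, and the part of this overlap in their low values was not tested.

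Of the 8 complex I assembly factors, which build the complex and then leave it, NDUFAF8 (0.66) and NDUFAF4 (0.61) rose and NDUFAF7, a methyltransferase, fell. NDUFAF7 was measured at 18.4, 19.5 and 23.1 TMM-scaled CPM in the Vector libraries and 13.2, 13.9 and 15.9 in the OE-MMP28 libraries. The groups did not overlap (log2 fold change -0.50 ± 0.18 (SE), adjusted p = 0.0472). Leaving out any library other than Vector replicate 1 ended this call, with adjusted p between 0.0538 and 0.235. The call of NDUFAF4 was lost without any library other than Vector replicate 1 (adjusted p between 0.0944 and 0.193). That of NDUFAF8 was lost without Vector replicate 3 (adjusted p = 0.12) and without OE-MMP28 replicate 2 (adjusted p = 0.16) or 3 (adjusted p = 0.107). With the neighbour offset none of the assembly factors was called: NDUFAF7 was at -0.07, adjusted p = 0.849, its neighbours standing at -0.44, NDUFAF4 at 0.49, adjusted p = 0.132, and NDUFAF8 at 0.60, adjusted p = 0.0587.

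Complex II, succinate dehydrogenase, also belongs to the tricarboxylic acid cycle, and it showed the largest summed change of the complexes. Its median log2 fold change of 0.521 was nearly that of complex V (0.520). With the neighbour offset its median of 0.29 was the lowest of the complexes, the others lying between 0.33 and 0.37. SDHA, the flavoprotein that oxidizes succinate (chr5:218241-256700), was measured at 242, 238 and 253 TMM-scaled CPM in the Vector libraries and 407, 467 and 448 in the OE-MMP28 libraries. The OE-MMP28 libraries were 1.80-fold higher, far beyond the spread within either group (log2 fold change 0.85 ± 0.14 (SE), adjusted p = 0.000224). SDHD, a membrane anchor, was measured at 121, 129.9 and 138 TMM-scaled CPM in the Vector libraries and 234, 179 and 209 in the OE-MMP28 libraries (log2 fold change 0.68 ± 0.15 (SE), adjusted p = 0.00264), and it was not called with the neighbour offset (0.21, adjusted p = 0.386). SDHB, the iron-sulfur subunit, stood at 70.9, 54.2 and 65.9 against 79.1, 78.2 and 88.3 TMM-scaled CPM for Vector against OE-MMP28, without overlap but short of the threshold (log2 fold change 0.36 ± 0.15 (SE), adjusted p = 0.0954). SDHC, the other anchor, stood at 128, 97.5 and 109 against 124, 126 and 119 TMM-scaled CPM and its groups overlapped (log2 fold change 0.14 ± 0.15 (SE), adjusted p = 0.534). The changes of the 4 subunits, which occupy the complex in equal numbers, were thus between 0.14 and 0.85 on the log2 scale. SDHA resembles several pseudogenes: the most abundant had between 541 and 876 counts per library against at least 3206 for SDHA, and how reads matching both were assigned is not given in the sources used here.

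Complex III, the cytochrome bc1 complex, had 10 tested members, of which 3 rose and none fell (median log2 fold change 0.37). This was 30% higher, against 18.7% of protein-coding genes of 10 FPKM or more and 11.7% of all genes tested. All 3 members that rose belonged to the 4 core and redox subunits. UQCRFS1, the Rieske iron-sulfur protein, which is inserted last (chr19:29205321-29213541), was measured at 47.5, 33.6 and 40.1 TMM-scaled CPM in the Vector libraries and 65.1, 76.8 and 71.3 in the OE-MMP28 libraries (log2 fold change 0.81 ± 0.16 (SE), adjusted p = 0.00137). UQCRC2, a large core protein, was measured at 168, 155 and 172 TMM-scaled CPM in the Vector libraries and 238, 236 and 223 in the OE-MMP28 libraries, without overlap (log2 fold change 0.49 ± 0.14 (SE), adjusted p = 0.0144). UQCRC1, its partner, was at 103, 103 and 103 against 118, 142 and 152 TMM-scaled CPM for Vector against OE-MMP28 (log2 fold change 0.42 ± 0.15 (SE), adjusted p = 0.045). The call of UQCRC1 held in 5 of 21 alternative fits and was lost without any library other than OE-MMP28 replicate 1, with adjusted p between 0.0777 and 0.179. UQCRC2 lost its call without Vector replicate 3 (adjusted p = 0.0561) and without OE-MMP28 replicate 2 (adjusted p = 0.0773). The neighbour offset ended the calls of UQCRC2 (0.22, adjusted p = 0.303) and UQCRC1 (0.34, adjusted p = 0.129). The remaining redox subunit, cytochrome c1 (CYC1), was at 171, 155 and 140.0 against 136, 198 and 210.2 TMM-scaled CPM, with overlapping groups (log2 fold change 0.22 ± 0.17 (SE), adjusted p = 0.354). None of the 6 small subunits passed. Among them UQCRH, the hinge protein, was the most abundant of the complex per length at 107 ± 12.5 FPKM in the Vector group and 129 ± 9.49 FPKM in the OE-MMP28 group (SD, n = 3 each) (log2 fold change 0.27 ± 0.15 (SE), adjusted p = 0.193), and UQCRB was on the other side of 0 (log2 fold change -0.19 ± 0.14 (SE), adjusted p = 0.379).

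Complex IV, cytochrome c oxidase, had 12 tested members, of which 3 rose and 1 fell (median log2 fold change 0.39). With so few genes, 25% higher is near the 18.7% of protein-coding genes of 10 FPKM or more. Over all genes tested the share was 11.7%. COX7C, a small supernumerary subunit (chr5:86617904-86620962), was measured at 198, 172 and 182 TMM-scaled CPM in the Vector libraries and 332, 351 and 386 in the OE-MMP28 libraries. This was 1.94-fold higher, with the groups far apart (log2 fold change 0.95 ± 0.14 (SE), adjusted p = 8.53e-05). COX6A1 was measured at 53.1, 44.3 and 42.3 TMM-scaled CPM in the Vector libraries and 59.1, 78.9 and 97.7 in the OE-MMP28 libraries (log2 fold change 0.76 ± 0.18 (SE), adjusted p = 0.00474), and COX7B at 102, 90.4 and 111 TMM-scaled CPM in the Vector libraries and 152, 135 and 171 in the OE-MMP28 libraries (log2 fold change 0.60 ± 0.15 (SE), adjusted p = 0.0072). COX6A1 varied most within the OE-MMP28 group, from just above the highest Vector library in replicate 1 to far above it in replicate 3, and it was not called with the neighbour offset (0.42, adjusted p = 0.121). COX8A, the most abundant member of the complex per length, stood at 150.3 ± 35.5 FPKM in the Vector group and 207 ± 62.9 FPKM in the OE-MMP28 group (SD, n = 3 each) and did not pass (log2 fold change 0.47 ± 0.21 (SE), adjusted p = 0.106), except without OE-MMP28 replicate 1 (adjusted p = 0.0227). COX4I1 and COX5A, which sit against the mitochondrially encoded core and enter early in assembly, did not pass either. COX5A was at 62.9, 59.8 and 67.6 against 79.7, 82.1 and 89.6 TMM-scaled CPM without overlap (log2 fold change 0.40 ± 0.15 (SE), adjusted p = 0.0534). COX4I1 was at 278, 538 and 285 against 242, 257 and 296 TMM-scaled CPM, with Vector replicate 2 far above the other 5 libraries (log2 fold change -0.47 ± 0.20 (SE), adjusted p = 0.0957), and without that library its log2 fold change was -0.09. It was called lower without Vector replicate 1 (adjusted p = 0.0174) or 3 (adjusted p = 0.0423).

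The forms of complex IV subunits that other tissues use were nearly silent. COX4I2, the lung and hypoxia form, had 1 count in 1 library. COX6A2 and COX7B2, forms of muscle and testis, and COX8C, another testis form, had 0 counts in all 6 libraries, which allows up to 0.220 CPM at the shallowest depth. COX7A1, the muscle form, had between 2 and 10 counts. COX6B2, the testis form of COX6B1, was low but tested, at 1.37, 4.30 and 3.34 TMM-scaled CPM in the Vector libraries and 0.502, 0.963 and 1.46 in the OE-MMP28 libraries. It fell (log2 fold change -1.61 ± 0.44 (SE), adjusted p = 0.0122), although Vector replicate 1 lay below OE-MMP28 replicate 3, and its common counterpart COX6B1 was at 87.6, 90.5 and 89.7 against 112, 100.4 and 141 TMM-scaled CPM (log2 fold change 0.40 ± 0.15 (SE), adjusted p = 0.0663). The call of COX6B2 was lost without Vector replicate 2 (adjusted p = 0.0542) and without OE-MMP28 replicate 1 (adjusted p = 0.0638), and another gene covers 30.9% of its exons. COX7A2L, which helps to join complexes III and IV, stood at 61.0, 47.1 and 58.5 against 47.8, 48.7 and 41.0 TMM-scaled CPM (log2 fold change -0.28 ± 0.16 (SE), adjusted p = 0.223). Of the other members that were not tested, NDUFA4L2, the hypoxia form of NDUFA4, had between 1 and 9 counts, ATP5MGL at most 1, and the read-through genes NDUFC2-KCTD14 and ATP5MF-PTCD1 at most 1.

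Complex V, the ATP synthase, had 19 tested members, of which 10 rose and none fell (median log2 fold change 0.52). In the F1 head, which makes the ATP, ATP5F1A (alpha) and ATP5F1D (delta) rose. ATP5F1A was measured at 358, 306 and 349 TMM-scaled CPM in the Vector libraries and 495, 500.3 and 506 in the OE-MMP28 libraries, with the OE-MMP28 libraries close together (log2 fold change 0.57 ± 0.14 (SE), adjusted p = 0.00577). ATP5F1B (beta), the partner of alpha in the catalytic ring and the most abundant of all members per length, stood at 278 ± 49.9 FPKM in the Vector group and 356 ± 17.4 FPKM in the OE-MMP28 group (SD, n = 3 each). Its groups did not overlap but it did not pass (log2 fold change 0.37 ± 0.15 (SE), adjusted p = 0.0831), except without Vector replicate 1 (adjusted p = 0.0255). ATP5F1C (gamma), the rotating shaft, stood at 179, 163 and 187 against 153, 131 and 147 TMM-scaled CPM, with all OE-MMP28 libraries below all Vector libraries (log2 fold change -0.30 ± 0.14 (SE), adjusted p = 0.14). The call of ATP5F1D (log2 fold change 0.64), whose groups overlapped, was lost without Vector replicate 3 or OE-MMP28 replicates 2 or 3, with adjusted p between 0.0802 and 0.127, and with the neighbour offset (0.51, adjusted p = 0.0736).

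Of the 3 genes for the subunit of the c-ring, which encode the same mature protein, ATP5MC1 rose and the other two did not pass. ATP5MC1 was measured at 30.0, 27.1 and 30.6 TMM-scaled CPM in the Vector libraries and 41.5, 57.4 and 65.2 in the OE-MMP28 libraries (log2 fold change 0.90 ± 0.18 (SE), adjusted p = 0.00107). ATP5MC2 and ATP5MC3 were at log2 fold changes of 0.32 and 0.10, and ATP5MC1 had the lowest level of the 3 per length in the Vector group (11.1 against 30.9 and 22.6 FPKM). In the peripheral stalk, which holds the head still, ATP5PF (0.61) and ATP5PB (0.54) rose and ATP5PD (0.40) and ATP5PO (0.22) did not pass. Of the membrane accessory subunits ATP5MPL, ATP5ME, ATP5MG and ATP5MF rose, 4 of 5 tested. ATP5MPL, a short protein at the membrane face (chr14:103912288-103928269), was measured at 49.3, 47.9 and 46.9 TMM-scaled CPM in the Vector libraries and 95.3, 93.9 and 101 in the OE-MMP28 libraries. The level doubled with almost no spread in either group (log2 fold change 1.01 ± 0.15 (SE), adjusted p = 5.9e-05). ATP5MD, the fifth of them and abundant at 108 ± 5.68 FPKM in the Vector group and 94.2 ± 7.34 FPKM in the OE-MMP28 group (SD, n = 3 each), lay at a log2 fold change of -0.18 (adjusted p = 0.387).

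ATP5S, a coupling factor, was measured at 20.7, 21.4 and 21.6 TMM-scaled CPM in the Vector libraries and 41.6, 39.2 and 37.3 in the OE-MMP28 libraries and rose (log2 fold change 0.89 ± 0.16 (SE), adjusted p = 0.000478), but was not called with the neighbour offset (0.30, adjusted p = 0.223). ATP5IF1, which blocks ATP hydrolysis by the enzyme when the proton gradient fails, stood at 57.9, 69.2 and 39.7 against 36.4, 62.9 and 69.7 TMM-scaled CPM, with overlapping groups (log2 fold change 0.02 ± 0.22 (SE), adjusted p = 0.961), and the sign of this near-zero value changed with the scaling. The calls of ATP5ME and ATP5MF rested on less: ATP5ME, whose exons another gene covers to 61.6%, was lost without Vector replicate 3 (adjusted p = 0.153) and without OE-MMP28 replicates 2 or 3 (adjusted p = 0.135 and 0.258). ATP5MF was lost without Vector replicates 2 or 3 or OE-MMP28 replicates 2 or 3 (adjusted p between 0.0907 and 0.22). ATP5PB was lost without Vector replicate 2 or OE-MMP28 replicates 1 or 2 (adjusted p between 0.0506 and 0.0705) and with the neighbour offset (0.41, adjusted p = 0.0778). ATP5MG was lost with the neighbour offset as well (0.16, adjusted p = 0.547).

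**Figure D3:**
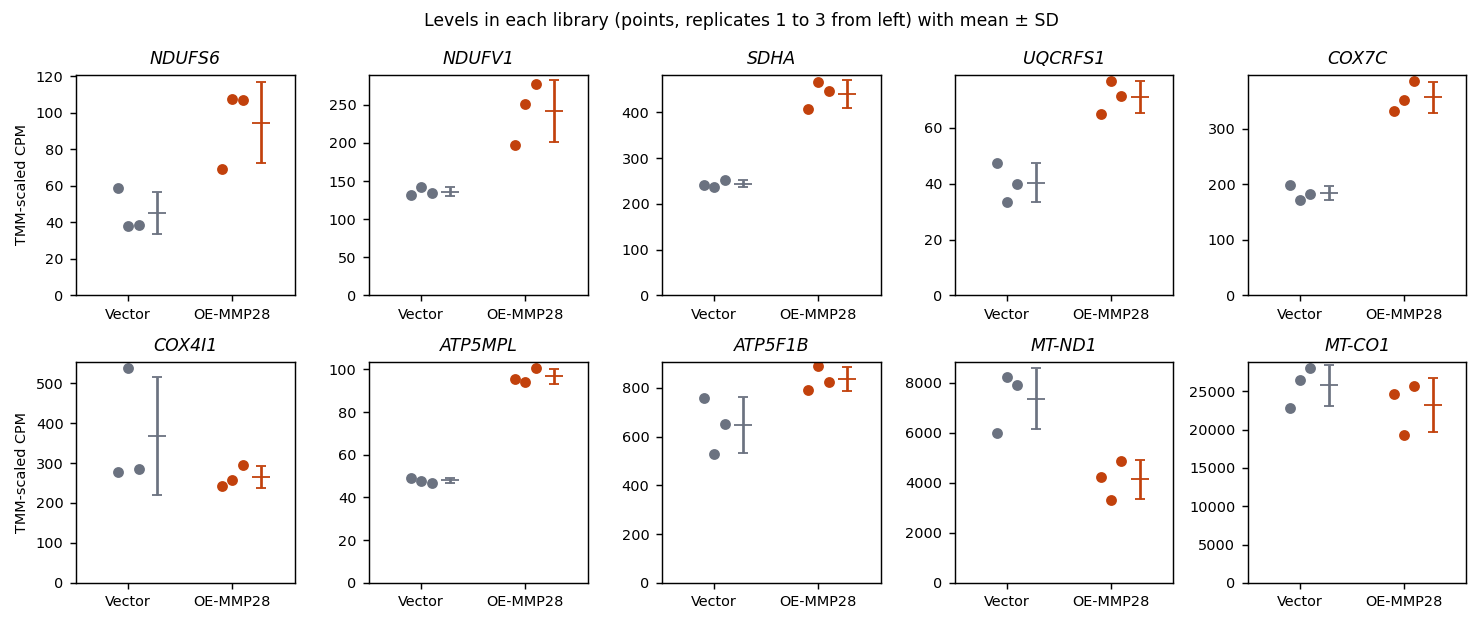
TMM-scaled CPM (vertical axes, from 0) of 8 nuclear members and 2 mitochondrial mRNAs in each library, with the mean ± SD of each group (n = 3) beside the points. SDHA, COX7C and ATP5MPL separate the groups widely, COX4I1 shows a single high Vector library, and MT-CO1 overlaps between the groups.

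The 13 mitochondrially encoded mRNAs gave the other side of the same complexes and did not rise with the nuclear members. None was called higher, 2 of the 13, MT-ND1 and MT-ND2, were lower, and the median log2 fold change was -0.13. Over all genes tested 11.7% were called higher and 11.6% lower, so 2 of 13 lower is near the background. MT-ND1, a membrane subunit of complex I, was measured at 5984, 8202 and 7901 TMM-scaled CPM in the Vector libraries and 4243, 3314 and 4848 in the OE-MMP28 libraries (log2 fold change -0.83 ± 0.16 (SE), adjusted p = 0.00116). MT-ND2, another, was measured at 4985, 7384 and 6629 TMM-scaled CPM in the Vector libraries and 4805, 3288 and 4872 in the OE-MMP28 libraries (log2 fold change -0.55 ± 0.17 (SE), adjusted p = 0.025). For both, all OE-MMP28 libraries lay below all Vector libraries, but the call of MT-ND2 was lost without Vector replicates 2 (adjusted p = 0.0601) or 3 (adjusted p = 0.0645) and without OE-MMP28 replicate 2 (adjusted p = 0.146). The other subunits of complex I, MT-ND3, MT-ND4L, MT-ND4, MT-ND5 and MT-ND6, were at log2 fold changes of 0.12, 0.04, -0.13, -0.33 and -0.26. MT-CYB of complex III was at a log2 fold change of 0.32 (adjusted p = 0.196). The catalytic core of complex IV, MT-CO1, MT-CO2 and MT-CO3, was at -0.15, -0.11 and -0.28, and MT-ATP6 and MT-ATP8 of complex V at -0.09 and -0.07. None of these 11 passed in edgeR with all libraries. Without Vector replicate 1, MT-CO3 (adjusted p = 0.0487) and MT-ND5 (adjusted p = 0.0426) were called lower. MT-ND4, MT-CO2 and MT-ATP6 changed to a log2 fold change of 0.02, 0.0017 and 0.04 without OE-MMP28 replicate 2, and MT-ND3, MT-ND4L and MT-ATP8 also crossed 0 in some alternatives.

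Together the 13 mRNAs took 9.59%, 11.7% and 11.9% of the counts in the Vector libraries and 10.3%, 7.89% and 10.7% in the OE-MMP28 libraries, and the groups overlapped. The counts of the 13 were 12.5, 16.9 and 16.7 times those of the 100 nuclear members in the Vector libraries and 12.0, 8.42 and 10.8 times in the OE-MMP28 libraries. These ratios did not overlap, but Vector replicate 1 and OE-MMP28 replicate 1 were close. The mitochondrial rRNAs were examined after these values were seen. MT-RNR2, the large rRNA, was measured at 20408, 24842 and 26689 TMM-scaled CPM in the Vector libraries and 10971, 7773 and 10437 in the OE-MMP28 libraries (log2 fold change -1.30 ± 0.16 (SE), adjusted p = 8.88e-06), and MT-RNR1, the small rRNA, at 1364, 2199 and 1717 TMM-scaled CPM in the Vector libraries and 1039.9, 800.2 and 1081 in the OE-MMP28 libraries (log2 fold change -0.85 ± 0.17 (SE), adjusted p = 0.00139). Both fell without overlap. The study's methods do not say how rRNA was treated in library preparation, and its part in these values was not tested. Along the mitochondrial genome the rRNA genes come first and MT-ND1 and MT-ND2 follow directly, so the 4 transcripts that fell are neighbours in map order.

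**Figure D4:**
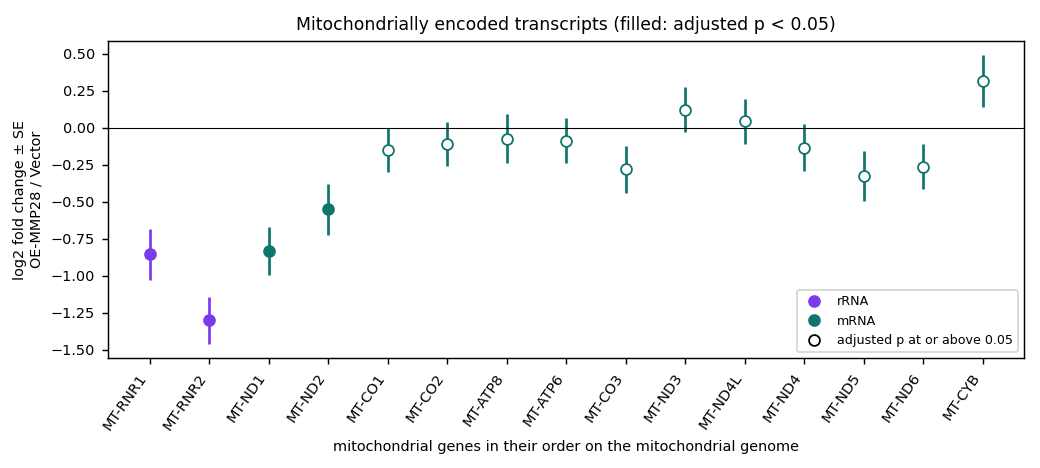
Log2 fold change ± SE (vertical axis, OE-MMP28 over Vector, edgeR, n = 3 each) of the 2 rRNAs and 13 mRNAs of the mitochondrial genome in map order from left to right. Filled points had an adjusted p under 0.05. The first 4 transcripts lie between -1.30 and -0.55 and the remaining 11 between -0.33 and 0.32.

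Members differed by where they lie in the genome. For each gene the median log2 fold change of the other tested genes within 10 Mb was taken from the same fit. Of 16 members whose neighbours had a median below -0.2, none rose and NDUFAF7 fell. Of 60 members with neighbours from -0.2 to 0.2, 23 rose and COX6B2 fell, and of 15 with neighbours above 0.2, 13 rose. The limits of 0.2 were chosen after the values were seen. Shares of all tested genes in the same ranges were not taken, so these counts are not read as particular to the members. Across the 91 members Pearson's r between a member's log2 fold change and that of its neighbours was 0.65 and Spearman's rho was 0.66, a description over genes that share libraries and, in part, neighbours. By chromosome, 6 of 7 members on chromosome 11 and 3 of 3 on chromosome 14 rose, where the median over all tested genes was 0.26 and 0.56. Of all tested genes on these chromosomes 24.7% and 50.6% were called higher. On chromosomes 2, 8 and 10, where that median was -0.41, -0.34 and -0.47, none of 7, 5 and 3 members rose, against 2.06%, 3.69% and 2.79% of all tested genes. The members on chromosomes 2, 8 and 10 include NDUFS1, NDUFA10, COX5B, CYC1, UQCRB, ATP5F1C and ATP5MD. Most tested members without a higher call lay on other chromosomes.

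**Figure D5:**
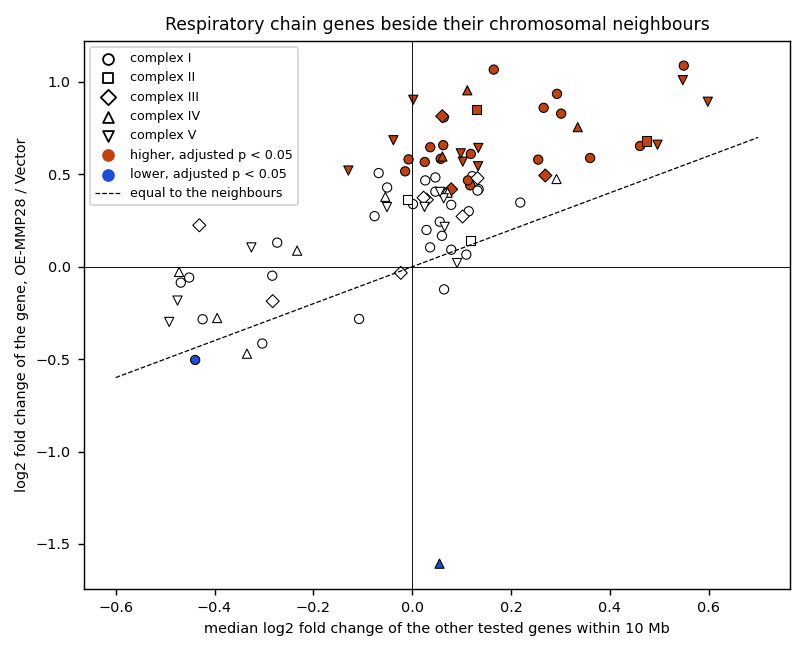
Log2 fold change of the 91 tested members (vertical axis) against the median log2 fold change of the other tested genes within 10 Mb (horizontal axis), with a shape for each complex. Orange and blue points rose and fell at an adjusted p under 0.05, and the dashed line marks equal values. Most points lie above the line, including those of NDUFS1, CYC1 and ATP5F1C, whose neighbours lie below -0.2.

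Set against their neighbours the members were still higher, though fewer passed. With the median of the neighbours entered as an offset in edgeR, 24 members rose and 1 fell, against 7.19% and 7.99% of all genes in that fit, and the median log2 fold change was 0.35. Of the 36 members called higher before, 20 were called again and 16 were not, and 4 others were added. Among the 16 with neighbours below -0.2 the median moved from -0.13 to 0.26, and among the 15 above 0.2 from 0.68 to 0.30, with 4 of these 15 called. CYC1, whose neighbours stood at -0.43, was among those added (0.66, adjusted p = 0.011), and NDUFS1 moved to a log2 fold change of 0.14, adjusted p = 0.578. Among those no longer called, NDUFB1, NDUFB5, SDHD, ATP5MG and ATP5S had neighbours between 0.46 and 0.60. SDHA, COX7C, NDUFS6, NDUFV1, NDUFS8, UQCRFS1 and ATP5MC1 were called in both. The 13 mitochondrial mRNAs are not read from this fit, since their neighbours are the other transcripts of the same small genome and the offset sets them against each other. In it 2 of the 13 were called higher and 1 lower, with a median of 0.25. The cause of the shared shift of neighbours was not tested.

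Other features of the genes followed the changes less. Across the 91 members Spearman's rho of the log2 fold change was -0.10 with gene length, 0.01 with GC content and 0.16 with mean FPKM, again as descriptions. Another annotated gene covered more than 20% of the exon length of 17 of the 100 members, 3 of them among the 36 that rose, and 52 members had named pseudogenes, 195 in all, of which 12 reached 10 counts in a library.

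Genes that serve the chain without being part of it moved in part with it. For the lists below, the shares over all genes tested were 11.7% higher and 11.6% lower. Among protein-coding genes of 10 FPKM or more, the background chosen after the values were seen, they were 18.7% and 8.97%. With the neighbour offset the shares over all genes tested were 7.19% and 7.99%. Of 45 tested factors for assembly of the complexes, with cytochrome c, 15 rose (33.3%) and 1 fell (median log2 fold change 0.37). They included the complex I factors ACAD9 (1.00 ± 0.16 (SE), adjusted p = 0.000173) and FOXRED1 (0.89 ± 0.16 (SE), adjusted p = 0.000443), the complex III factor UQCC2 (1.08 ± 0.21 (SE), adjusted p = 0.000999), the insertase OXA1L (0.76), cytochrome c itself (CYCS, 0.67), the copper chaperone COX17 (0.60) and the complex IV factor SURF1 (0.63), whereas COA5 fell (-0.87 ± 0.18 (SE), adjusted p = 0.00203). Without Vector replicate 3 the adjusted p of COX17 was 0.0793. With the neighbour offset 8 factors were called higher and none lower, and OXA1L (0.18, adjusted p = 0.445), COX17 (0.39, adjusted p = 0.131), FOXRED1 (0.38, adjusted p = 0.105) and COA5 (-0.43, adjusted p = 0.122) were not called. Of 18 genes of the tricarboxylic acid cycle and pyruvate dehydrogenase 6 rose (33.3%) and none fell (median 0.37). The log2 fold change was above 0 for all 18, against 51.2% of all genes tested. Among protein-coding genes of 10 FPKM or more it was above 0 for 2603 of 4114. PC, which makes oxaloacetate from pyruvate, was measured at 12.7, 13.1 and 16.2 TMM-scaled CPM in the Vector libraries and 33.3, 37.8 and 41.5 in the OE-MMP28 libraries (log2 fold change 1.42 ± 0.18 (SE), adjusted p = 9.51e-06), and DLST (0.73), FH (0.72) and DLAT (0.63) rose as well. With the neighbour offset 4 of the 18 were called, and DLST (0.17, adjusted p = 0.466) and DLAT (0.15, adjusted p = 0.574), whose neighbours stood at 0.56 and 0.48, were not. Of 29 tested genes of mitochondrial import, carriers and chaperones 10 rose (34.5%) and 1 fell (median 0.34). Among those that rose were the small intermembrane chaperones TIMM10 (1.20 ± 0.20 (SE), adjusted p = 0.000214) and TIMM8B (0.97 ± 0.17 (SE), adjusted p = 0.000529) and the phosphate carrier SLC25A3 (0.58). VDAC2 was lower (-0.45). VDAC2 lost its call without Vector replicates 1 or 3 or OE-MMP28 replicates 2 or 3, with adjusted p between 0.0581 and 0.138. With the neighbour offset 5 of the 29 were called higher and none lower, with VDAC2 at -0.04, adjusted p = 0.901 and TIMM8B at 0.50, adjusted p = 0.0565.

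Of 12 tested nuclear regulators of respiratory genes 1 rose and 1 fell (8.33% each), near the 11.7% and 11.6% of all genes, with a median log2 fold change of 0.06. PPARGC1B, a coactivator, rose from a low level (0.67 ± 0.22 (SE), adjusted p = 0.0335) and CREB1 fell (-0.48 ± 0.15 (SE), adjusted p = 0.0276). PPARGC1B lost its call without any library other than Vector replicate 1 (adjusted p between 0.0585 and 0.16), and CREB1 without Vector replicate 3 or OE-MMP28 replicates 2 or 3 (adjusted p between 0.0953 and 0.136). With the neighbour offset none of the 12 was called, with PPARGC1B at 0.60, adjusted p = 0.0692 and CREB1, whose neighbours stood at -0.42, at -0.07, adjusted p = 0.813. NRF1, GABPA and YY1, whose motifs were searched, did not pass. Of 29 tested genes for transcription, processing and stability of mitochondrial RNA 3 rose and none fell (median 0.12), and 10.3% higher is near the 11.7% of all genes. SLIRP, an RNA-binding protein that stabilizes mitochondrial mRNAs, was measured at 28.5, 21.1 and 26.8 TMM-scaled CPM in the Vector libraries and 60.4, 72.0 and 64.0 in the OE-MMP28 libraries (log2 fold change 1.36 ± 0.17 (SE), adjusted p = 8.88e-06). The transcription factor TFB2M (0.70 ± 0.19 (SE), adjusted p = 0.00972) and the DNA-binding protein SSBP1 (0.63 ± 0.15 (SE), adjusted p = 0.00492) were the others, and TFB2M lost its call without OE-MMP28 replicate 2 (adjusted p = 0.0651). With the neighbour offset 5 of the 29 were called higher and none lower, against 7.19% and 7.99% of all genes, and the median was 0.23. FASTK (0.52, adjusted p = 0.0479) and FASTKD2 (0.53, adjusted p = 0.0363) were added in that fit.

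The count of members that rose varied with the libraries used. It was 40, 26 and 24 without Vector replicate 1, 2 or 3 and 45, 21 and 25 without OE-MMP28 replicate 1, 2 or 3, so that leaving out OE-MMP28 replicate 2 moved it most. The members that fell were 4 without Vector replicate 1, namely COX6B2, NDUFAF7, COX4I1 and NDUFA10, and none without Vector replicate 2 or OE-MMP28 replicate 1. Over 21 alternative fits 13 of the 36 were called higher each time, and all 36 kept a log2 fold change above 0. The 13 were NDUFV1, NDUFS6, NDUFS8, NDUFA12, NDUFAB1, SDHA, UQCRFS1, COX7C, COX7B, ATP5F1A, ATP5PF, ATP5MC1 and ATP5MPL.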

How the data were processed

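RNA of 3 Vector and 3 OE-MMP28 libraries of AsPC-1 cells was sequenced by the authors. The deposited table held whole read counts per gene, not normalized, which the submitters' processing notes credit to HISAT2 (2.0.5) and featureCounts (1.5.0-p3). The authors also deposited FPKM per gene and library, used here only for levels between genes and for alternative fits. Strand setting, alignment options and the treatment of reads that match several places are not given in the sources used here. Deposited columns of group means, fold changes and p-values of the authors' own comparison were not used, and 0 per-sample columns were left unmapped. Genes kept the identifiers of the table, all 58735 of which matched the gene annotation (GRCh38, GENCODE 29).

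Groups came from the sample labels. Genes passing edgeR's filterByExpr (minimum count 10, minimum total 15; 15319 genes) were fitted with edgeR 4.0.16 in R 4.3.3 by group alone, with TMM scaling, the quasi-likelihood test (two-sided) and Benjamini-Hochberg adjustment over all genes tested, at a threshold of 0.05. The study names limma for this comparison, and edgeR was used because the values are counts. Members were read from this fit and never adjusted over their own list; 1 member enters the counts and medians but is not reported singly here. TMM-scaled CPM were computed from the counts. Total counts of 13633249 to 16691458 set the precision, and a count of 0 allows 3 counts, which is 0.180 to 0.220 CPM. Such limits cover counting error only.

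The members and gene lists were chosen with earlier results of these data known. Named were the members past the threshold (given singly up to about 25), the most abundant members of each complex, the core subunits, tissue forms beside their common forms, the inhibitor, and members not tested. NDUFA10, NDUFB7, ATP5F1C, UQCRB, the grouping of subunits into modules and the 2 mitochondrial rRNAs were chosen after their values were seen. Alternatives were other scalings and filters, DESeq2 1.42.0, limma 3.58.1 (voom, and log2(FPKM + 1) or log2(FPKM + 0.1)), offsets for gene length or for neighbouring genes within 10 Mb, the replicate number as a block, and each library left out; an offset for length and GC was added after seeing the data. The fit was also run on simulated counts with independent genes and the same dispersion for every gene. These lack the shared shifts of neighbouring genes seen here, so nothing is concluded from them. Summaries and figures used Python 3.11.15, pandas 2.3.3 and matplotlib 3.10.9.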

Additional observations from a re-analysis of the deposited data

How the results depend on the processing

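The count of members called higher ranged from 21 to 47 over 21 alternatives, with a full-data value of 36. It was 24 with the offset for neighbouring genes, 26 with limma on FPKM, 31 with upper-quartile scaling, 37 with DESeq2 and 47 with an offset for length and GC, the last chosen after seeing the data. Leaving out each library gave 21 to 45 higher, 0 to 4 lower, 1 to 4 mitochondrial mRNAs lower, and a median of 0.25 to 0.40 for complex IV. The count of 2 members lower became 1 with voom, the replicate block and the neighbour offset and 0 with limma on FPKM, which called 1 mitochondrial mRNA lower. The median of complex II was 0.29 with the neighbour offset.

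The neighbour offset turned NDUFS1 (0.14), COX7A2L (0.12), ATP5MD (0.29), ATP5F1C (0.19) and UQCRB (0.096) to above 0. ATP5IF1 became -0.0011 with RLE scaling, -0.026 with upper-quartile scaling, -0.0090 without mitochondrial genes in the totals, -0.0059 with a minimum of 1 CPM, -0.0082 and -0.0091 with limma on FPKM, -0.071 with the length offset, -0.086 with length and GC, -0.000034 with the replicate block, -0.075 with block and length, -0.071 with neighbours, and -0.17 to 0.23 with a library left out. NDUFB7 became 0.024 with voom, 0.0045 and 0.0058 with limma on FPKM, 0.0090 with the replicate block, 0.032 with block and length, and -0.39 to 0.54 with a library left out, among them 0.54 without Vector replicate 2 and 0.052 without OE-MMP28 replicate 1. With a library left out MT-ND4 ranged from -0.25 to 0.018, MT-CO2 from -0.19 to 0.0017 and MT-ATP6 from -0.18 to 0.044, each above 0 without OE-MMP28 replicate 2, and MT-ND3 from -0.017 (without OE-MMP28 replicate 3) to 0.24. MT-ND4L was -0.0019 with upper-quartile scaling and -0.084 to 0.16 with a library left out, among them -0.0033 and -0.0055 without Vector replicates 1 and 2. MT-ATP8 was 0.021 with length, 0.040 with length and GC, 0.012 with block and length, and -0.20 to 0.086 with a library left out, among them 0.011 without Vector replicate 2. None of these genes passed the threshold under the setting named, and the cause was not tested. Of 2317 results on 112 single genes, 1949 kept direction and side of the threshold, 311 lost the call, 18 gained one and 39 changed sign.

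Same-numbered libraries did not deviate together (r = 0.017, 0.0080 and -0.088 for numbers 1 to 3), and not every library correlated best with its own number, so the number was not taken as a pairing. With the replicate block 36 members were higher and 1 lower. With 3 libraries a group, small changes cannot be told from none, and low members such as COX6B2 rest on few counts.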
